A study of Mus musculus with 8 samples.

Results

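The genes described here are 40 genes of the lysosome and of its transcriptional control, taken by symbol from a list of mouse gene names and found as 40 rows among the 29079 genes of the count table. The list was chosen with earlier results of these data known. Its counts beside the shares of all genes are therefore descriptions and not an independent test. They comprise 7 membrane proteins, 3 soluble cofactors, 10 proteases, 4 lipid hydrolases, 8 glycosidases and sulfatases, 5 subunits of the proton pump and 3 transcription factors. They were measured by mRNA sequencing in MC38, a mouse colon adenocarcinoma line that the labels describe as epithelial, in 4 groups of 2 libraries. One line had gone through CRISPR with a control (CRISPR-Ctrl) and is labelled WT. The other was edited with 1 guide RNA against the mechanosensitive channel gene Piezo2 (Piezo2-gRNA1) and is labelled KO. The sources used here do not say whether either line is a clone or a pool. Nor do they say whether the 2 libraries of a group came from separate cultures, so p-values measure only the spread between these libraries. Each line was either not irradiated (non-IR) or given X-rays as a single fraction of 30 Gy (IR), and RNA was taken 60 hours later. All 4 groups are cultured tumor cells that share this CRISPR background. The comparisons are therefore irradiation in each line, KO against WT with and without irradiation, and the difference between the irradiation effects of the lines.

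Lysosomes are acidic organelles in which proteins, lipids, glycans and nucleic acids delivered by endocytosis and autophagy are broken down. A proton pump, the vacuolar ATPase, acidifies the lumen, heavily glycosylated proteins line the membrane, and soluble hydrolases with their cofactors do the digestion. Many of these genes are known to be switched on together by Tfeb, Tfe3 and Mitf, basic helix-loop-helix factors that bind E-box sequences and whose activity is controlled mostly by phosphorylation and by movement between the lysosome surface, the cytosol and the nucleus.

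After irradiation the lysosome genes took up about double the share of the library in either line. In WT they held 0.675% ± 0.029 of all counts (SD, n = 2) without irradiation and 1.34% ± 0.036 after it, a ratio of 1.99 between the means. In KO the shares were 0.751% ± 0.036 and 1.46% ± 0.061, a ratio of 1.94. Every irradiated library lay above every non-irradiated one. The rise was spread over the effector classes: the irradiated share divided by the non-irradiated share was 2.13 in WT and 2.07 in KO for membrane proteins, 2.14 and 2.20 for cofactors, 2.17 and 2.06 for proteases, 1.80 and 1.90 for glycosidases with the sulfatase, 1.61 and 1.42 for lipid hydrolases and 1.49 and 1.41 for the proton pump. The 3 transcription factors held nearly the same share, with ratios of 0.972 and 0.99. A class share is a sum and follows the genes with the most counts. In non-irradiated WT, Tfe3 averaged 107 counts per M of the library's total, Tfeb 9.17 and Mitf 8.86. Among the lipid hydrolases Asah1 averaged 534, Lipa 50.2, Smpd1 46.1 and Gla 13.3. These values are relative to each library's total and give no absolute amount of RNA per cell. Since each library pools many cells, more RNA per cell and more cells with high levels cannot be told apart.

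**Figure D1:**
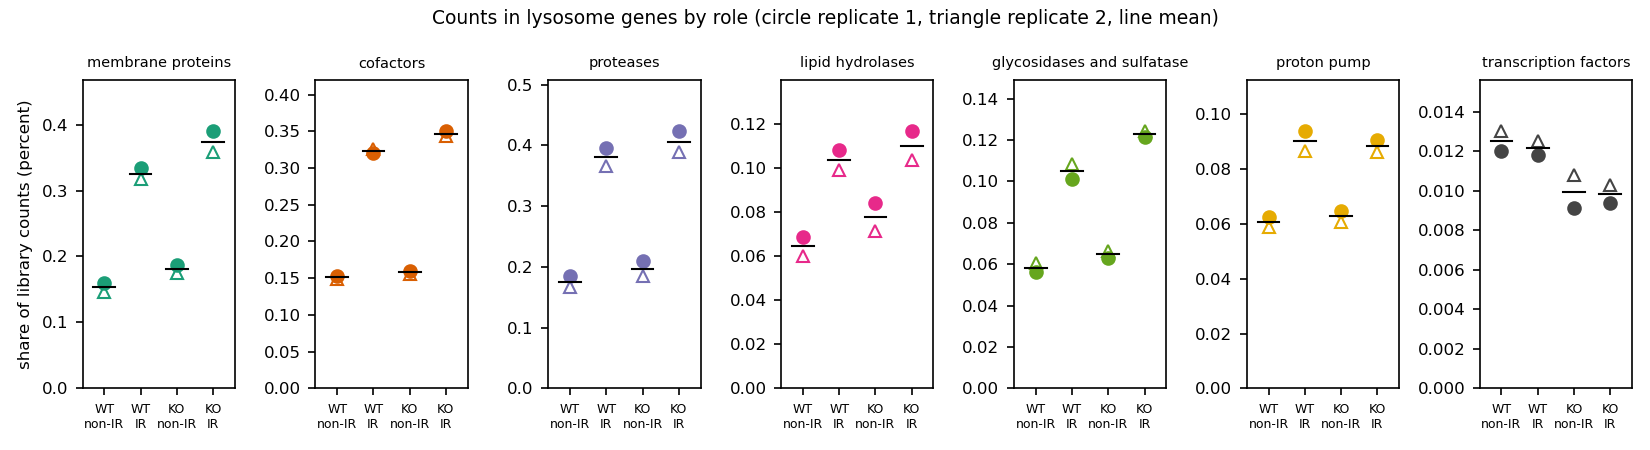
Share of each library's counts (percent, vertical axis) in the 7 classes of lysosome genes for the 4 groups; each point is 1 library and the line is the group mean. In every class but the transcription factors both irradiated libraries of a line lie above both non-irradiated libraries of that line.

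Gene by gene, 27 of the 39 lysosome genes that could be tested rose with irradiation in WT and 0 fell (edgeR quasi-likelihood test, Benjamini-Hochberg adjusted p under 0.05; 3 were lower at an unadjusted p under 0.05 and 0 by DESeq2), where 20.4% of all 14923 tested genes rose and 18.4% fell. In KO 33 rose and 1 fell, beside 21.1% and 18.6% of all genes. Rises of at least 2-fold numbered 13 in each line, against 10.2% of all genes in WT and 10.7% in KO. The counts in KO include Ctss, which passed the filter on low counts through irradiated KO alone; without it they were 32 of 38 and 12. The median log2 change of the lysosome genes was 0.79 in WT and 0.82 in KO, while that of all genes was 0.03 and 0.02. There were 26 genes that rose in both lines, which 14.8% of all genes did. Of the remaining ones 7, the same Ctss among them, were called higher in KO and missed the threshold in WT. A further 1 (Asah1) was called higher in WT and missed it in KO, and 1 (Gusb) was called lower in KO. In neither line were 4 called (Cd63, Atp6v0a1, Tfeb and Tfe3), and Ctsf was not tested. With the replicate number as a block the fit called 3 members lower in WT (Scarb2, Gusb and Tfeb), where it called 29.9% of all genes lower. That fit left 3 residual degrees of freedom and pooled spread over genes, so its p-values say little of each gene's own replicates.

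**Figure D2:**
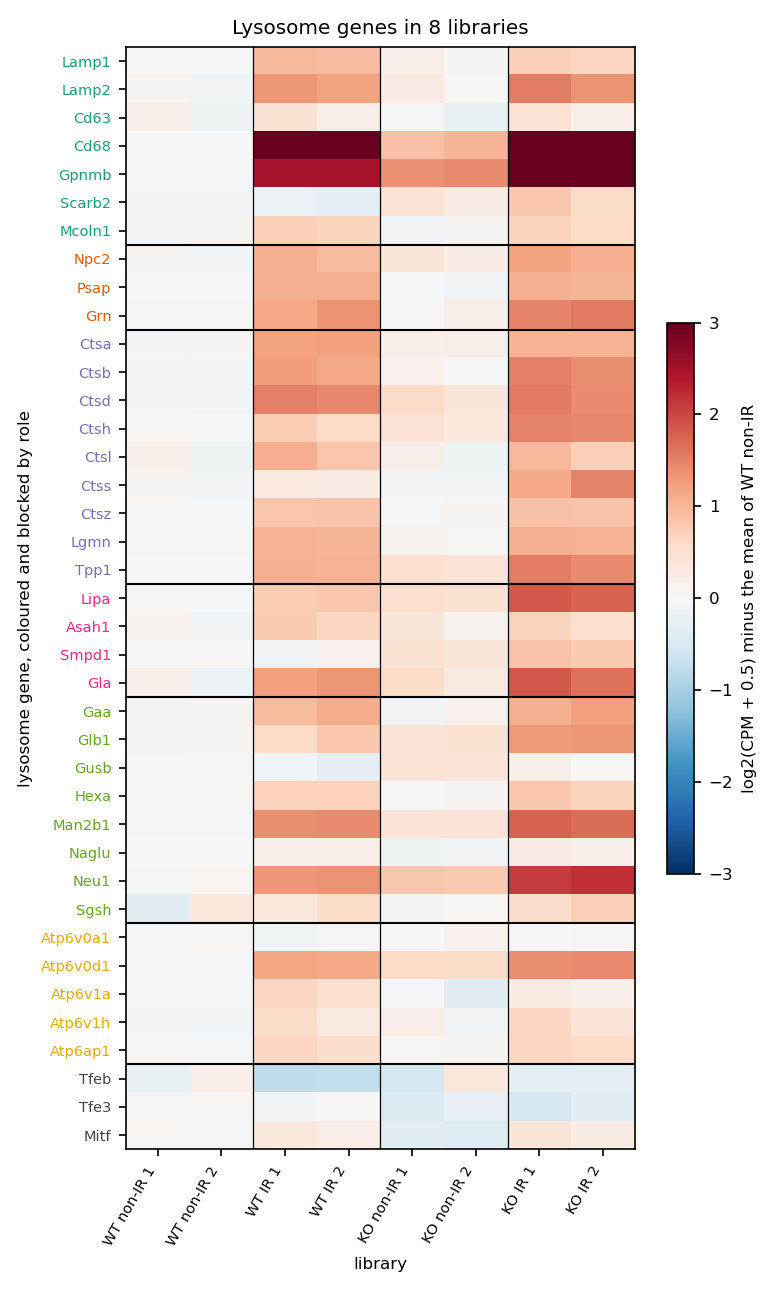
Level of 39 lysosome genes in the 8 libraries, as log2(CPM + 0.5), with CPM the counts per M of the library's total, minus the mean of the non-irradiated WT libraries, with genes in rows by role and libraries in columns; red is higher and blue lower, and the colour scale ends at -3 and 3. The 4 irradiated columns are red in most rows, and the rows of Cd68 and Gpnmb are the darkest.

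Total counts per library ran from 10.97 M to 19.89 M. Piezo2 itself was close to unread in every library, with 0 and 0 reads in the WT non-IR libraries, 3 and 9 in the WT IR libraries, 0 and 1 in the KO non-IR libraries, and 7 and 12 in the KO IR libraries, so these reads check neither the labels nor the knockout. Of the 8 epithelial markers examined 5 had a row in the count table. Cdh1 had 526 to 1365 reads per library, while Krt8, Krt18, Krt19 and Vil1 had at most 28. Epcam, Krt20 and Cdx2 had no row. Because several lysosome genes, Cd68 first of all, are used as macrophage markers, 12 other macrophage genes were read out: Tyrobp, C1qa, C1qb, Adgre1 and Itgam had at most 2 reads in any library and Csf1r at most 10. The summed level of the 12 genes was 5.91 to 6.23 counts per M of the library's total (CPM) in non-irradiated WT, 8.71 to 11.1 in irradiated WT, 11.1 to 11.7 in non-irradiated KO and 18.99 to 20.6 in irradiated KO, most of it from Cd14. Only 3 of the 12 passed the filter on low counts. Ptprc, which encodes the leukocyte antigen CD45, had 0 and 2 reads in the WT non-IR libraries, 20 and 20 in the WT IR libraries, 0 and 0 in the KO non-IR libraries, and 6 and 7 in the KO IR libraries. Lyz2, a lysozyme gene of myeloid cells, had 1 and 0 reads in the WT non-IR libraries, 4 and 14 in the WT IR libraries, 2 and 0 in the KO non-IR libraries, and 13 and 13 in the KO IR libraries. Both had more reads after irradiation in either line. With at most 2 reads in any non-irradiated library, they passed the filter through the irradiated groups, so no p is given for them. Cd14 was called higher with irradiation in KO (log2 0.61 ± 0.17, adjusted p = 0.0238) and in KO against WT without irradiation (0.94 ± 0.17, adjusted p = 0.00932) and after it (1.25 ± 0.17, adjusted p = 0.00189). That sum was higher after irradiation and in KO, beside the lysosome genes, and its part in their change was not tested.

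The transcription factors were low in level per length. Averaged over the libraries, Tfe3 had 10.2 CPM per kb of exon and Tfeb 1.36, with Mitf just above Tfeb, beside 435 for Psap at the top of the 40. Tfe3 is the most abundant of the family here (ENSMUSG00000000134, chromosome X, 7762560 to 7775202, plus strand), and its libraries gave 103 and 111 CPM in the WT non-IR libraries, 101 and 109 in the WT IR libraries, 78.4 and 89.3 in the KO non-IR libraries, and 74.5 and 85.6 in the KO IR libraries. Irradiated and non-irradiated libraries of a line overlapped, with log2 changes of -0.08 ± 0.10 (SE) in WT and -0.10 ± 0.10 in KO (adjusted p = 0.59 and 0.477). Both KO groups lay below both WT groups: Tfe3 fell in KO by 0.36 on the log2 scale without irradiation (adjusted p = 0.0491) and by 0.38 after it (adjusted p = 0.033). The first of these calls was lost on leaving out any 1 of the 8 libraries (adjusted p = 0.0521 to 0.246), the second on leaving out 1 of 4 (both irradiated WT libraries, non-irradiated WT replicate 1 and irradiated KO replicate 1).

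Tfeb, the factor best known for the lysosomal programme (ENSMUSG00000023990, chromosome 17, 47737030 to 47792419, plus strand), was read at 7.83 and 10.5 CPM in the WT non-IR libraries, 5.16 and 5.29 in the WT IR libraries, 6.11 and 11.7 in the KO non-IR libraries, and 7.43 and 7.502 in the KO IR libraries. In WT both irradiated libraries lay below both non-irradiated ones, whereas in KO the non-irradiated replicates spread on either side of the irradiated ones. Its log2 change with irradiation was -0.87 ± 0.30 in WT (adjusted p = 0.056; 9.51e-05 with the replicate block) and -0.31 ± 0.30 in KO (adjusted p = 0.453). Mitf, which drives the melanosome branch of the same family (ENSMUSG00000035158, chromosome 6, 97807052 to 98021349, plus strand), gave 9.31 and 8.41 CPM in the WT non-IR libraries, 11.1 and 10.2 in the WT IR libraries, 6.84 and 6.64 in the KO non-IR libraries, and 11.6 and 10.3 in the KO IR libraries. The irradiated KO libraries lay above the non-irradiated KO libraries, by 0.67 ± 0.15 on the log2 scale (adjusted p = 0.00978), and the change in WT was 0.20 ± 0.15 (adjusted p = 0.322). The rise of Mitf in KO was not called without non-irradiated KO replicate 2 (adjusted p = 0.0509) or without irradiated KO replicate 1 (adjusted p = 0.0643). Of the 3 factors 0 were called higher with irradiation in WT and 1 (Mitf) in KO, beside 20.4% and 21.1% of all genes. What part the factors had in the rise of the other lysosome genes was not tested.

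The sequence bound by these factors was looked for in the promoters of the lysosome genes. RefSeq promoter windows (GRCm38.p6, 250 bases before to 50 after the start site) were matched for 36 of the 40 genes. The E-box CACGTG occurred in 14 of these 36 genes (38.9%) and in 8.09% of the 27025 genes in the promoter table. Its extended form TCACGTGA, the core of the CLEAR element of lysosomal genes, occurred in 6 of 36 (16.7%) and in 1.12% of all. With 1 further base on either side (the palindrome starting with G), it occurred in 0 of 36 and in 0.37% of all. Among genes tested for expression with a window, CACGTG occurred in 37.1% of the 35 lysosome genes and 11.4% of all 10517, and TCACGTGA in 17.1% and 2.16%. Each motif reads the same on both strands and each longer one contains the shorter. The stretches printed here carry the matches of a pair of genes described below, in the direction of transcription from 5′ to 3′, with CACGTG or TCACGTGA in capitals. Lamp1 (chr8:13159080-13159160, plus strand) is shown for its 4 E-boxes and Atp6v1a (chr16:44139364-44139411, minus strand) for its single TCACGTGA.
Lamp1: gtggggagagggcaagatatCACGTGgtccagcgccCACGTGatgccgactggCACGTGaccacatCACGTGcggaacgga
Atp6v1a: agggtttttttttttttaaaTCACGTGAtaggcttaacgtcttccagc

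In the Lamp1 stretch the E-boxes start 61, 45, 28 and 15 bases before the start site. In Atp6v1a the E-box starts 131 bases before it. The other genes with TCACGTGA were Atp6v0d1, Ctsa, Ctsd, Gla and Mcoln1. Their E-boxes start 227 and 194 bases before the RefSeq start in Gla, 245 and 98 in Ctsd, 71 and 45 in Mcoln1, and 12 before and 5 after it in Ctsa, and that of Atp6v0d1 starts 3 bases before its start site and runs across it. The remaining genes with CACGTG alone were Ctsf, Ctsl, Gaa, Glb1, Lgmn, Naglu and Sgsh. All 6 genes with TCACGTGA rose in both lines, with a median log2 change of 1.14 in WT and 0.83 in KO. Among the 29 tested lysosome genes with a window and without it, 18 rose in WT and 24 in KO, with medians of 0.79 and 0.82. The 24 include Ctss, which passed the filter on low counts through irradiated KO alone. Over all tested genes with a window, 27.8% of the 227 with TCACGTGA rose in WT and 22.9% in KO, beside 21.4% and 22.3% of those without. A match is a run of letters in a window and says nothing of binding.

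Of the 7 membrane proteins 5 rose in WT and 6 in KO. Gpnmb, a transmembrane glycoprotein of lysosomes and melanosomes (ENSMUSG00000029816, chromosome 6, 49036546 to 49070929, plus strand), was read at 109 and 101 CPM in the WT non-IR libraries, 592 and 596 in the WT IR libraries, 272 and 279 in the KO non-IR libraries, and 1133 and 1077 in the KO IR libraries. The groups did not overlap, and from low to high they ran non-irradiated WT, non-irradiated KO, irradiated WT and irradiated KO. Irradiation raised it 5.43-fold in WT (log2 2.44 ± 0.08, adjusted p = 5.29e-06) and 3.91-fold in KO (log2 1.97 ± 0.08, adjusted p = 2.86e-06). Per kb of exon it climbed from 16.1 CPM in non-irradiated WT to 91.2 in irradiated WT and 169.7 in irradiated KO. Cd68, a lysosomal relative of the LAMP proteins that is best known from macrophages (ENSMUSG00000018774, chromosome 11, 69664213 to 69666153, minus strand), gave 3.499 and 3.61 CPM in the WT non-IR libraries, 35.9 and 38.05 in the WT IR libraries, 6.93 and 7.69 in the KO non-IR libraries, and 62.7 and 53.7 in the KO IR libraries. Apart from the scarce Ctss, it had the largest irradiation effect of the 39 genes, 9.96-fold in WT (log2 3.32 ± 0.13, adjusted p = 8.59e-06) and 7.71-fold in KO (log2 2.95 ± 0.12, adjusted p = 2.93e-06). Here too the groups were apart, with every KO library above the WT libraries of the same treatment.

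Lamp1 and Lamp2 are the main glycoproteins of the lysosomal membrane. Lamp1 (ENSMUSG00000031447, chromosome 8, 13159161 to 13175338, plus strand) was second of the 40 by level per length, and its libraries held 711 and 691 CPM in the WT non-IR libraries, 1376 and 1334 in the WT IR libraries, 786 and 746 in the KO non-IR libraries, and 1150.2 and 1099 in the KO IR libraries. It rose by 0.89 ± 0.07 in WT (log2, adjusted p = 0.000115) and by 0.52 ± 0.07 in KO (adjusted p = 0.00114). Irradiated KO was the lower of the irradiated groups, with no overlap. Lamp2, also the receptor of chaperone-mediated autophagy, had 361 and 319 against 846 and 787 CPM in WT, and 402 and 352 against 984 and 869 CPM in KO (non-irradiated against irradiated). Its rise was 1.20 ± 0.11 and 1.26 ± 0.11 on the log2 scale (adjusted p = 0.000179 and 0.000115). Mcoln1, the calcium channel TRPML1, rose by 0.65 ± 0.10 in WT and 0.61 ± 0.10 in KO (adjusted p = 0.00199 and 0.00253).

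Scarb2, the receptor that carries glucocerebrosidase to the lysosome, had opposite signs in the lines. Its libraries held 104 and 94.3 against 87.6 and 82.4 CPM in WT, and 131 and 116 against 175 and 145 CPM in KO. Both irradiated WT libraries lay below the non-irradiated ones, with a log2 change of -0.28 ± 0.11 (adjusted p = 0.081; 1.13e-05 with the replicate block), and both irradiated KO libraries lay above theirs, a rise of 0.34 ± 0.11 (adjusted p = 0.0432). The call in KO was lost on leaving out any 1 library other than irradiated KO replicate 2 (adjusted p = 0.0554 to 0.238). Cd63, a tetraspanin of late endosomes, changed by 0.25 ± 0.15 and 0.42 ± 0.15 (adjusted p = 0.231 and 0.0612). In WT it was called with the block (4.43e-06), and in KO with the block (1.05e-10), DESeq2 (0.0238), upper-quartile scaling (0.0431), no filter (0.001) and the fit of the 2 groups compared (0.0413).

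**Figure D3:**
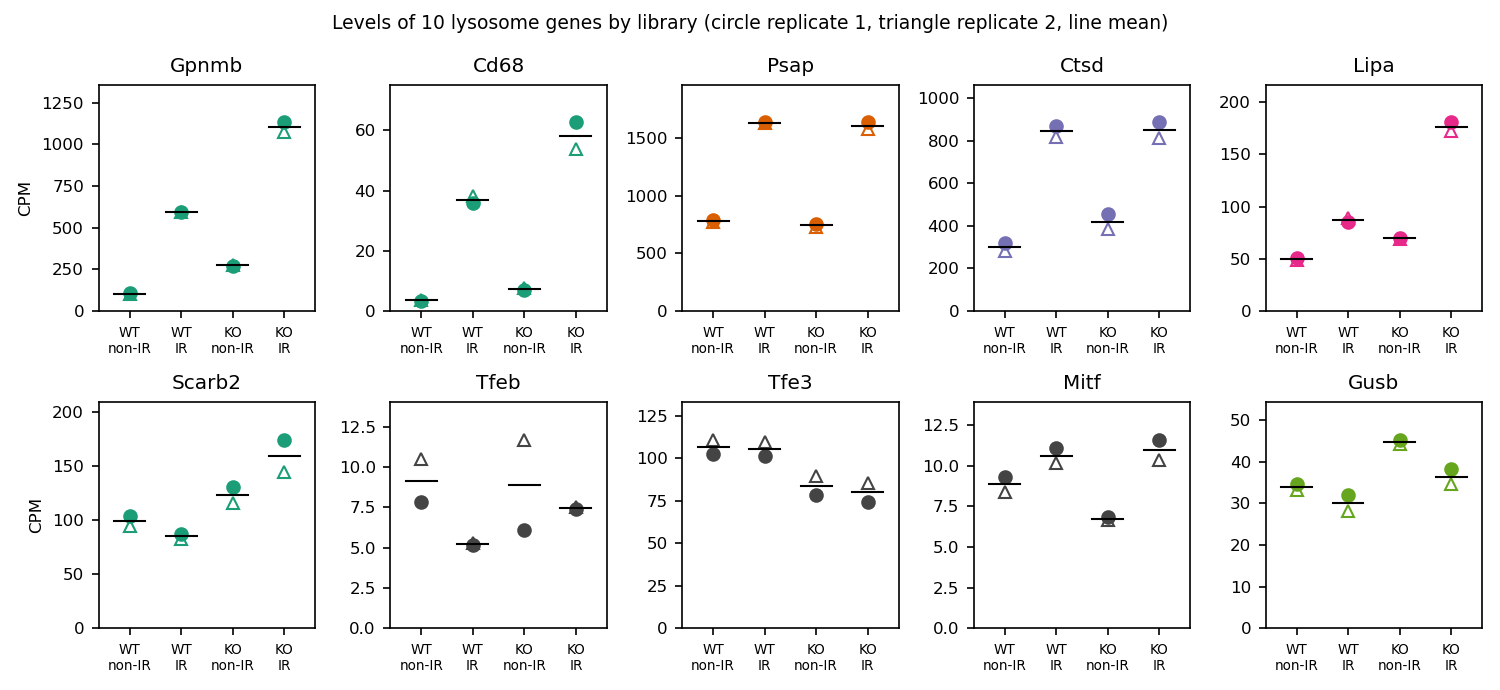
Level (CPM, vertical axis from 0) of 10 lysosome genes in the 8 libraries; circles are replicate 1, triangles replicate 2 and the line the group mean. Gpnmb, Cd68 and Lipa are highest in irradiated KO, Psap and Ctsd are alike in both irradiated groups, and Tfe3 is lower in both KO groups.

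All 3 cofactors rose in both lines. Psap, the precursor of the saposins that help degrade sphingolipids (ENSMUSG00000004207, chromosome 10, 60277627 to 60302597, plus strand), was the most abundant lysosome gene per length, and was read at 789.8 and 772 CPM in the WT non-IR libraries, 1639 and 1635 in the WT IR libraries, 759 and 729 in the KO non-IR libraries, and 1638 and 1577 in the KO IR libraries. Its rise was 2.01-fold in WT (log2 1.01 ± 0.07, adjusted p = 5.8e-05) and 2.11-fold in KO (log2 1.08 ± 0.07, adjusted p = 2.67e-05). The irradiated groups of the lines overlapped, and the non-irradiated KO libraries lay just below the non-irradiated WT ones. Grn, which encodes progranulin, a secreted and lysosomal precursor of granulins, had 365 and 386 against 821 and 950.0 CPM in WT, and 386 and 422 against 1036 and 1103 CPM in KO. Every irradiated library lay above every non-irradiated one, and it rose by 1.18 ± 0.10 and 1.37 ± 0.10 (adjusted p = 0.000138 and 5.31e-05). Npc2, the lumenal cholesterol carrier, rose by 0.94 ± 0.10 and 0.84 ± 0.10 (adjusted p = 0.000374 and 0.000567).

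Among the proteases, 8 rose in each line of the 8 that were tested and did not depend on irradiated KO to pass the filter. Ctsl, a cysteine cathepsin and the protease with the most counts, had 561 and 458 against 1085 and 908 CPM in WT, and 570.1 and 457 against 991 and 834 CPM in KO. It rose by 0.91 ± 0.16 and 0.80 ± 0.16 (adjusted p = 0.00342 and 0.0058), and in every group replicate 1 was the higher library. Ctsd, the aspartic protease of lysosomes and the third of the 40 by level per length (ENSMUSG00000007891, chromosome 7, 142375911 to 142388038, minus strand), was read at 322 and 284 CPM in the WT non-IR libraries, 869.7 and 816 in the WT IR libraries, 454 and 386 in the KO non-IR libraries, and 886 and 814 in the KO IR libraries. Its rise was 2.67-fold in WT (log2 1.42 ± 0.11, adjusted p = 8.39e-05) and 1.98-fold in KO (log2 0.98 ± 0.11, adjusted p = 0.000362). The irradiated groups overlapped, and the non-irradiated KO libraries started higher than the WT ones.

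Ctsb, a cysteine cathepsin with both endopeptidase and dipeptidase activity, had 386 and 346 against 872 and 821 CPM in WT, and 397 and 352 against 1039 and 956 CPM in KO. Its rise was 1.15 ± 0.10 in WT and 1.38 ± 0.10 in KO (adjusted p = 0.000132 and 4.3e-05). Ctsa, the carboxypeptidase that protects Neu1 and the acid beta-galactosidase, had 103 and 115 against 255 and 256 CPM in WT, and 122 and 124 against 225 and 227 CPM in KO. It rose by 1.16 ± 0.07 and 0.85 ± 0.07 (adjusted p = 4.22e-05 and 0.000126), and here irradiated WT was the higher of the irradiated groups. Tpp1, a tripeptidyl peptidase, gave 77.9 and 76.8 against 164 and 159 CPM in WT, and 110.4 and 102 against 225 and 208 CPM in KO. Its log2 rise was 1.00 ± 0.07 in WT and 0.99 ± 0.07 in KO (adjusted p = 7.89e-05 and 5.67e-05), from a higher start in KO. Ctsh, an aminopeptidase among the cathepsins, was highest in irradiated KO, with 123 and 113 against 201 and 176 CPM in WT, and 161 and 146 against 330.2 and 321 CPM in KO. It rose by 0.62 ± 0.09 and 1.05 ± 0.09 (adjusted p = 0.00176 and 0.000126), and no group overlapped another. Lgmn, the asparaginyl endopeptidase, rose by 0.97 ± 0.07 and 0.97 ± 0.07, and Ctsz, a carboxypeptidase, by 0.79 ± 0.08 and 0.82 ± 0.08, with adjusted p = 6.15e-05, 4.29e-05, 0.000242 and 0.000179.

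Ctss and Ctsf, cathepsins best known from immune cells and from muscle and brain, were close to unread. Ctss had 1 and 0 reads in the WT non-IR libraries, 2 and 2 in the WT IR libraries, 0 and 0 in the KO non-IR libraries, and 10 and 17 in the KO IR libraries, and passed the filter on low counts through irradiated KO alone. Over the group, irradiated KO held 27 reads against 0 in non-irradiated KO, which is at least 8.57-fold higher at a floor of 3 reads for the group of 0. Since that group decided whether it was tested, no p is given for it. In WT the 4 reads after irradiation against 1 gave a ratio of 4.17 with an exact 95% interval of 0.413 to 205, which covers counting error only. Ctsf had 1 read in all 8 libraries, in irradiated KO replicate 1.

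Of the 4 lipid hydrolases 3 were called higher in each line: Lipa and Gla in both, Asah1 in WT and Smpd1 in KO. Lipa, the acid lipase that frees cholesterol and fatty acids from lipoproteins (ENSMUSG00000024781, chromosome 19, 34492318 to 34527474, minus strand), was read at 51.2 and 49.1 CPM in the WT non-IR libraries, 85.1 and 88.8 in the WT IR libraries, 70.2 and 68.7 in the KO non-IR libraries, and 181 and 172 in the KO IR libraries. All 4 groups were apart, and irradiated KO held about double the level of irradiated WT. Irradiation raised Lipa 1.66-fold in WT (log2 0.73 ± 0.07, adjusted p = 0.00025) and 2.48-fold in KO (log2 1.31 ± 0.07, adjusted p = 1.13e-05). Gla, the alpha-galactosidase A that degrades globotriaosylceramide, had 14.9 and 11.7 against 31.8 and 33.8 CPM in WT, and 19.6 and 15.99 against 49.6 and 42.9 CPM in KO. It rose by 1.24 ± 0.15 and 1.35 ± 0.15 (adjusted p = 0.000745 and 0.000432). Asah1, the acid ceramidase, had the most counts of the class, with 575 and 494 against 919 and 817 CPM in WT, and 686 and 571 against 850.4 and 742 CPM in KO. Its rise was called in WT, at 0.64 ± 0.13 (adjusted p = 0.00624). In KO it was 0.31 ± 0.13 (adjusted p = 0.0908; 1.2e-09 with the replicate block). Smpd1, the acid sphingomyelinase, changed by -0.03 ± 0.10 in WT (adjusted p = 0.862) and rose by 0.38 ± 0.09 in KO (adjusted p = 0.0149), a call lost without non-irradiated KO replicate 2 or irradiated KO replicate 1 (adjusted p = 0.0741 and 0.0731).

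Among the 8 glycosidases and sulfatases 5 rose in WT, and in KO 7 rose and 1 fell. Gaa, the acid alpha-glucosidase that digests glycogen, had the most counts, with 194 and 218 against 397 and 448 CPM in WT, and 195 and 223 against 430.5 and 484 CPM in KO. It rose by 0.98 ± 0.12 and 1.09 ± 0.12 (adjusted p = 0.000565 and 0.000311). Man2b1, an alpha-mannosidase, gave 77.2 and 73.3 against 199 and 201 CPM in WT, and 101 and 98.9 against 259 and 242 CPM in KO. It rose 2.55-fold in WT (log2 1.35 ± 0.07, adjusted p = 2.2e-05) and 2.45-fold in KO (log2 1.29 ± 0.07, adjusted p = 1.42e-05). Neu1, the lysosomal sialidase, was scarce at 10.02 and 11.04 against 26.6 and 27.8 CPM in WT, and 18.7 and 18.4 against 46.9 and 49.9 CPM in KO, and its 4 groups did not overlap. Its rise was 1.31 ± 0.10 and 1.35 ± 0.09 (adjusted p = 7.45e-05 and 3.59e-05).

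Glb1, whose product is the enzyme behind the senescence-associated beta-galactosidase stain, rose by 0.66 ± 0.09 in WT and 0.83 ± 0.09 in KO (adjusted p = 0.00129 and 0.000414), from 60.6 and 67.3 to 97.5 and 113 CPM in WT and from 86.0 and 87.7 to 155 and 160.4 CPM in KO. Hexa, a subunit of beta-hexosaminidase, rose by 0.63 ± 0.08 and 0.67 ± 0.08 (adjusted p = 0.000686 and 0.000477). The 2 heparan sulfate enzymes were called higher in KO and missed the threshold in WT. Naglu changed by 0.11 ± 0.07 in WT and 0.28 ± 0.07 in KO (adjusted p = 0.258 and 0.0189). Sgsh changed by 0.35 ± 0.21 and 0.61 ± 0.21 (adjusted p = 0.223 and 0.0495). The rise of Naglu in KO was lost on leaving out 1 of 4 libraries (adjusted p = 0.0586 to 0.106) and that of Sgsh on leaving out 1 of 6 (adjusted p = 0.065 to 0.213); the block called Sgsh in WT as well (0.000896). Gusb, the beta-glucuronidase, was the 1 lysosome gene that fell with irradiation in KO. Its libraries held 34.6 and 33.2 against 32.02 and 28.2 CPM in WT, and 45.3 and 44.2 against 38.1 and 34.5 CPM in KO, and both irradiated groups lay below the non-irradiated group of their line. The change was -0.23 ± 0.10 in WT (adjusted p = 0.0975; 0.0164 with the block) and -0.34 ± 0.10 in KO (adjusted p = 0.0277), and the fall in KO was not called without any 1 of the 4 KO libraries (adjusted p = 0.0528 to 0.15).

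The proton pump had 3 of 5 subunits higher in WT and 4 of 5 in KO. Atp6v0d1, of the membrane sector, gave 56.6 and 54.7 against 127 and 125 CPM in WT, and 82.7 and 82.2 against 147 and 150.3 CPM in KO, with no overlap between groups. It rose by 1.12 ± 0.07 in WT and 0.82 ± 0.07 in KO (adjusted p = 3.13e-05 and 7.93e-05). Atp6ap1, an accessory subunit needed for assembly and the pump gene with the most counts, had 241 and 222 against 359.7 and 335 CPM in WT, and 242 and 244 against 364 and 346 CPM in KO. It rose by 0.53 ± 0.08 and 0.51 ± 0.08 (adjusted p = 0.00191 and 0.00212). Of the cytosolic sector, Atp6v1a rose by 0.52 ± 0.11 and 0.38 ± 0.11 (adjusted p = 0.00846 and 0.0291), and Atp6v1h changed by 0.36 ± 0.14 (adjusted p = 0.076; 1.02e-07 with the block) and 0.43 ± 0.14 (adjusted p = 0.042). The call of Atp6v1a in WT was lost without replicate 2 of non-irradiated WT or replicate 1 of irradiated WT (adjusted p = 0.055 and 0.0544). In KO it was lost on leaving out 1 of 4 libraries, and that of Atp6v1h on leaving out 1 of 6 (adjusted p up to 0.179 and 0.236). Atp6v0a1, the membrane subunit that varies between compartments, changed by -0.11 ± 0.09 and -0.08 ± 0.09 (adjusted p = 0.39 and 0.545).

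Comparing the lines without irradiation, 12 lysosome genes were higher in KO and 1 lower, beside 10.4% and 9.49% of all genes. After irradiation 12 were higher and 2 lower, beside 13.3% and 11.4%. There were 10 genes higher in KO under both treatments (Cd68, Gpnmb, Ctsh, Tpp1, Lipa, Smpd1, Glb1, Man2b1, Neu1 and Atp6v0d1), which 6.84% of all genes were, and Tfe3 was lower under both. Without irradiation the largest differences were those of Gpnmb (log2 1.38 ± 0.08, adjusted p = 8.26e-05), Cd68 (1.04 ± 0.14, adjusted p = 0.00242) and Neu1 (0.80 ± 0.10, adjusted p = 0.00152). After irradiation, apart from Ctss, they were those of Lipa (1.04 ± 0.07, adjusted p = 6.69e-05), Scarb2 (0.92 ± 0.11, adjusted p = 0.00103) and Gpnmb (0.91 ± 0.08, adjusted p = 0.000205). The cofactors did not differ between the lines beyond the threshold, with log2 differences from -0.08 to 0.27 without irradiation and from -0.01 to 0.29 after it. With the replicate block Npc2 was called higher in KO under both treatments (adjusted p = 9.53e-08 and 0.00014), Psap lower without irradiation (0.0423) and Grn higher after it (2.6e-08). The median over the 39 genes was 0.10 without irradiation and 0.17 after it, beside -0.01 and -0.01 over all genes.

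**Figure D4:**
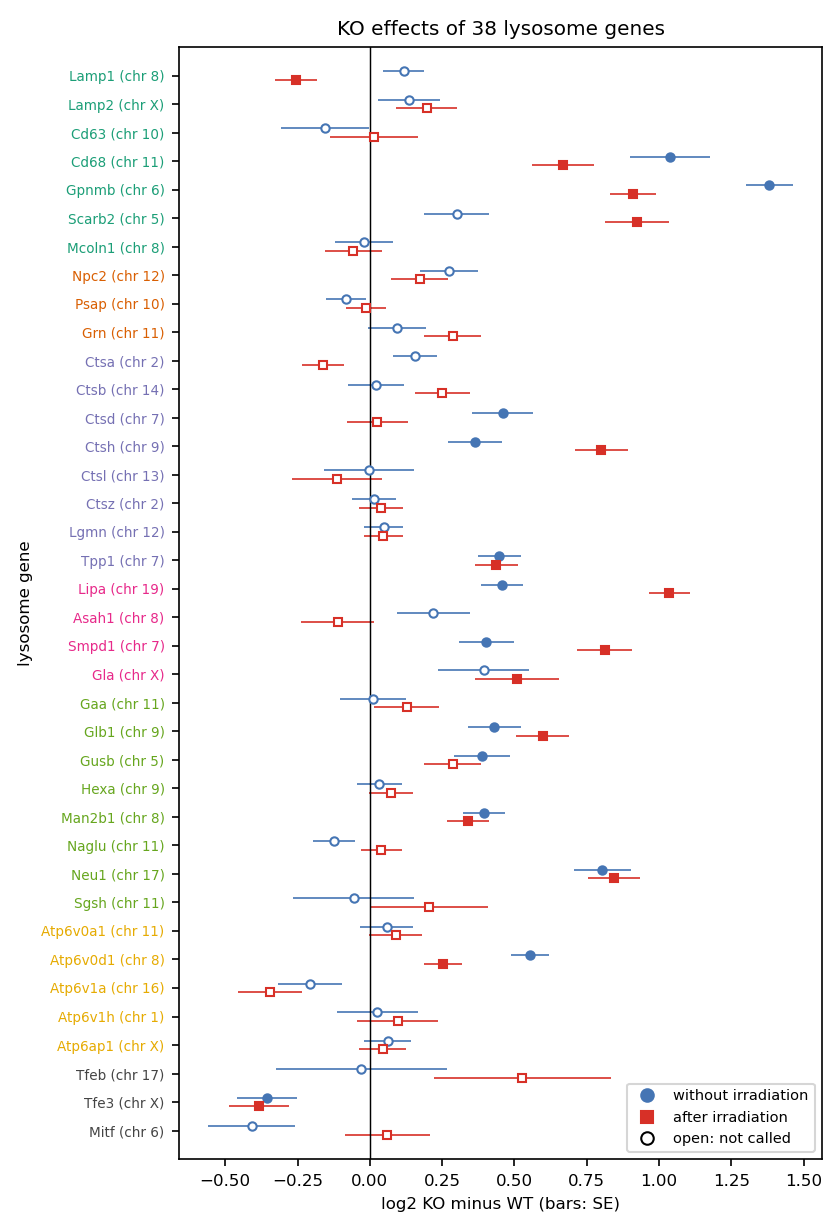
Difference between KO and WT (log2, horizontal axis; bars are the SE) of 38 lysosome genes without irradiation (blue circles) and after it (red squares); filled symbols passed the test and gene names carry their chromosome. Gpnmb, Cd68, Lipa and Scarb2 reach furthest to the right, and Tfe3 is the 1 gene filled on the left under both treatments.

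Some of these differences lay on chromosomes that differed as a whole between the lines. The 1148 tested genes of chromosome 7 had a median KO effect of 0.37 without irradiation and 0.38 after it (log2), and 29.1% and 32.7% of them were called higher. Ctsd, Tpp1 and Smpd1 are the lysosome genes on it, and their KO effects without irradiation were 0.46 ± 0.11, 0.45 ± 0.07 and 0.40 ± 0.10 (adjusted p = 0.0211, 0.00583 and 0.0231). After irradiation they were 0.03 ± 0.11, 0.44 ± 0.07 and 0.81 ± 0.10. For these 3 genes an effect of the edit and a difference of the whole chromosome cannot be told apart. Chromosome 16, which holds Atp6v1a, had medians of -0.32 and -0.36, and Atp6v1a differed by -0.21 ± 0.11 and -0.35 ± 0.11 (adjusted p = 0.237 and 0.0565; 0.000186 and 1.44e-08 with the replicate block). The chromosomes of Gpnmb (6), Cd68 (11), Lipa (19) and Neu1 (17) had medians between -0.10 and 0.03.

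Several of the smaller differences between the lines lost their call when 1 library was left out, while the differences kept their sign. Without irradiation, the call of Tfe3 was lost on leaving out any 1 of 8 libraries, and those of Ctsh, Smpd1, Gusb, Glb1, Ctsd and Man2b1 on leaving out 1 of 6, 4, 4, 3, 2 and 1 of them. The number of genes higher in KO fell from 12 to 7 without replicate 1 of non-irradiated KO or replicate 2 of non-irradiated WT, and to 8 without the other replicate of either group. After irradiation the call of Lamp1 (-0.26 ± 0.07, adjusted p = 0.0367) was lost on leaving out any library (adjusted p = 0.0505 to 0.237), and those of Gla (0.51 ± 0.15), Atp6v0d1 (0.25 ± 0.06) and Man2b1 (0.34 ± 0.07) on leaving out 1 of 4, 4 and 3. With the replicate number as a block the counts rose to 19 higher and 5 lower without irradiation (21.4% and 23.5% of all genes) and to 21 higher and 6 lower after it (25.2% of all genes in each direction). Beside the cofactors and Atp6v1a, the block added as higher without irradiation Scarb2 (2.54e-06), Asah1 (3.63e-06), Lamp2 (0.0036), Lamp1 (0.00456), Gla (0.00612) and Ctsa (0.00714), and as lower Cd63 (0.00711) and Mitf (0.0361). After irradiation it added as higher Ctsb (2.65e-07), Lamp2 (3.03e-05), Gusb (0.00415), Gaa (0.0073), Tfeb (0.019) and Sgsh (0.0428). As lower it added Ctsa (0.00195), Ctsl (0.00808) and Asah1 (0.00962). The 21 higher also include the scarce Ctss, which passed the filter through irradiated KO alone, so its call is no result.

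Whether irradiation acted differently on the lysosome genes of the lines was tested as the interaction. It called 1 of 39 lysosome genes higher, Lipa, and 0 lower (edgeR; 5 lower at an unadjusted p under 0.05), beside 1.37% and 0.57% of all genes. The irradiation effect on Lipa was larger in KO by 0.58 ± 0.10 (log2, adjusted p = 0.0332). That call was lost on leaving out any 1 of the 8 libraries, when the difference was 0.54 to 0.62 and the adjusted p 0.0933 to 0.156. Scarb2, with opposite signs in the lines, had a difference of 0.62 ± 0.16 (adjusted p = 0.127), Gpnmb one of -0.47 ± 0.11 (adjusted p = 0.0997), Ctsd one of -0.43 ± 0.15 (adjusted p = 0.277) and Lamp1 one of -0.37 ± 0.10 (adjusted p = 0.159). The intervals of genes that missed the threshold still admit sizable differences: for Cd68 the 95% interval ran from -0.78 to 0.04. For Psap it ran from -0.16 to 0.30, and for Ctsz from -0.23 to 0.28.

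With the replicate number as a block, 6 lysosome genes had a larger irradiation effect in KO (Lipa, Scarb2, Ctsh, Smpd1, Ctsb and Grn) and 6 a smaller one (Gpnmb, Lamp1, Ctsd, Asah1, Ctsa and Atp6v0d1), beside 8.15% and 8.55% of all genes. The adjusted p of that fit was 6.95e-09 for Scarb2, 6.38e-08 for Gpnmb, 6.37e-08 for Ctsd and 9.29e-08 for Lamp1. For the other 7 genes besides Lipa it was between 1.26e-06 (Ctsh) and 0.00943 (Grn). With 3 residual degrees of freedom, values this small rest mostly on spread pooled over genes, not on each gene's own replicates. DESeq2, without the block, called Lipa and Scarb2 larger in KO and Gpnmb smaller.

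**Figure D5:**
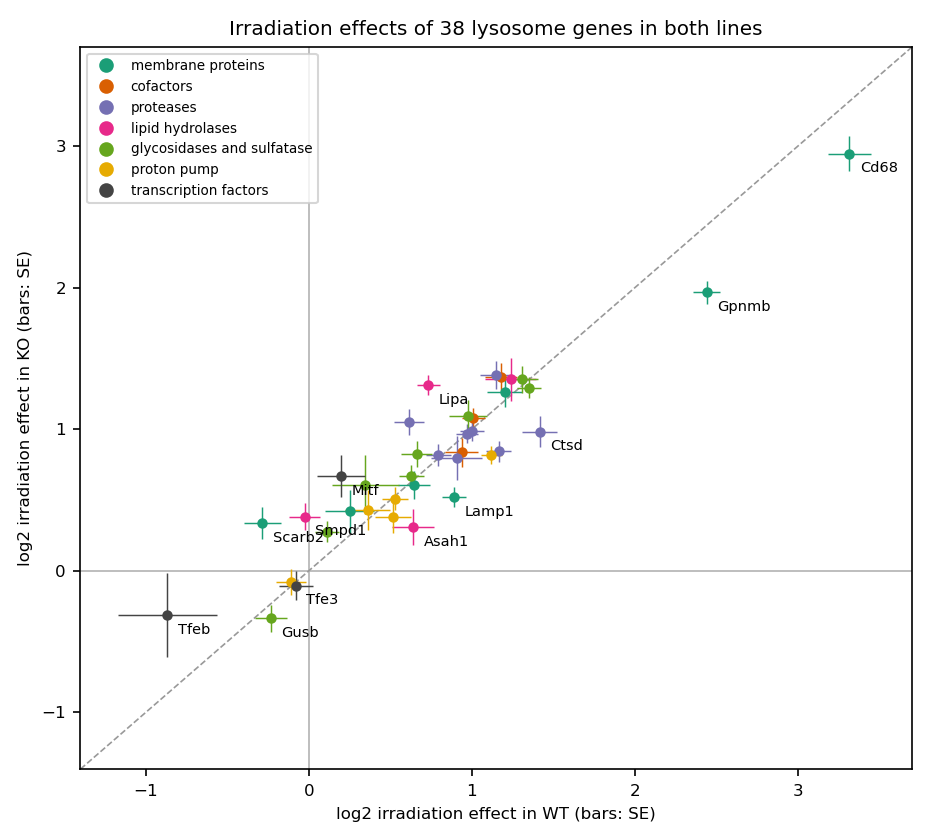
Irradiation effect on 38 lysosome genes in WT (horizontal axis, log2) against that in KO (vertical axis, log2); bars are the SE, colours the roles, and the dashed line marks equal effects. Most genes lie near the line between 0.3 and 1.5, Cd68 and Gpnmb lie far out and below it, and Lipa and Scarb2 lie above it.

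Other genes of the pathway, in lists put together with earlier results of these data known, are given by their counts. Beside each list stand all tested genes, of which 20.4% rose and 18.4% fell in WT. In KO 21.1% of all genes rose and 18.6% fell. Of 22 other hydrolases and their activators tested, 15 rose in WT and 0 fell, and in KO 18 rose and 1 (Galc) fell, with medians of 0.65 and 0.70. The rises in both lines include the scarce Acp5, described below. Gm2a, the activator protein for ganglioside breakdown, rose by 1.74 ± 0.16 and 1.73 ± 0.17 (adjusted p = 0.000212 and 0.000205). Acp5, an acid phosphatase, had 0 and 0 reads in the WT non-IR libraries, 3 and 6 in the WT IR libraries, 0 and 0 in the KO non-IR libraries, and 17 and 25 in the KO IR libraries; with 0 reads in either non-irradiated group, it passed the filter through irradiated libraries alone, and its rise was at least 3.13-fold in WT and at least 13.3-fold in KO. Of 15 other membrane proteins 8 rose in WT, while in KO 7 rose and 1 fell. Laptm4b, a transporter-like protein, rose by 1.06 ± 0.15 and 1.48 ± 0.15. Of 11 other pump subunits 7 and 6 rose, led by Atp6ap2 (1.06 ± 0.15 and 1.05 ± 0.15) and Atp6v1e1 (0.77 ± 0.12 and 1.05 ± 0.12).

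Of 13 genes for sorting to the lysosome, 6 rose and 2 fell in WT and 6 rose and 1 fell in KO. Sort1, the sortilin receptor that carries progranulin and prosaposin, rose by 1.92 ± 0.12 and 1.88 ± 0.12 (adjusted p = 3.85e-05 and 2.56e-05). Nagpa, which finishes the mannose 6-phosphate tag, fell by 0.56 and 0.57 on the log2 scale (adjusted p = 0.00873 and 0.00903). Among 23 autophagy genes 16 rose in WT and 13 in KO and 0 fell, with Map1lc3b at 1.53 ± 0.14 in WT, Optn at 1.46 ± 0.10 in KO and Gabarapl1, a relative of Map1lc3b on the autophagosome membrane, at 1.28 ± 0.08 and 1.34 ± 0.08. The kinase complex mTORC1 holds Tfeb and Tfe3 in the cytosol. Of 23 genes of its subunits and upstream regulators 8 rose and 4 fell in WT, and 7 rose and 2 fell in KO, beside 20.4% and 18.4% of all genes in WT and 21.1% and 18.6% in KO. Flcn, the folliculin gene that acts on that step, rose by 1.25 ± 0.08 and 1.04 ± 0.08, while Mlst8, a subunit of the complex, fell by 0.68 and 0.79 (adjusted p = 0.0286 and 0.016). Lamtor4, a Ragulator subunit on the lysosome surface, was lower in KO, with log2 differences of -1.42 ± 0.15 without irradiation and -1.29 ± 0.15 after it (adjusted p = 0.000889 and 0.000845). Of these 23 genes 2 were higher and 3 lower in KO without irradiation, beside 10.4% and 9.49% of all genes. After irradiation 1 was higher and 3 lower, beside 13.3% and 11.4%. Those higher without irradiation were Lamtor1 (log2 0.34, adjusted p = 0.0387) and Rragc (0.31, adjusted p = 0.0226).

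Parts of some of these transcripts lie over exons of other genes, and no strand setting is given for the counts. Of the exon bases of Ctsd 34.4% are shared with Gm49369 on the same strand, of Ctsl 26.9% with the antisense gene Gm47123, of Sgsh 21.6% with Card14, of Ctsb 12.8% with Fdft1, of Hexa 12.8% with Tmem202 and of Ctsa 10.5% with Pltp. The reads of Pltp came to 38.1% of those of Ctsa, and those of Fdft1 to 24.8% of those of Ctsb. The levels of these 6 genes are therefore less certain than those of Gpnmb, Cd68, Lipa or Psap, which share no exon bases with another gene in the annotation used.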

How the data were processed

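The authors deposited raw read counts per Ensembl gene for 8 mRNA-seq libraries. HISAT2, HISAT, HTSeq and DESeq2 on mm10 are named without versions or order, per the submitters' processing notes. Strand setting, annotation and filters are not stated, so reads of overlapping genes may be shared. Total counts ranged from 10.97 M to 19.89 M, and a count of 0 allows up to 3 reads.

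The counts were fitted with edgeR 4.0.16 in R 4.3.3 (quasi-likelihood F test) over all 8 libraries, with 1 coefficient per group, TMM factors of 0.975 to 1.02 and filterByExpr (minimum count 10, minimum total 15), which left 14923 of 29079 genes and 39 of the 40 lysosome genes. Residual degrees of freedom were 4, and 3 with the replicate block. P-values were adjusted over all tested genes (Benjamini-Hochberg, threshold 0.05). CPM are counts per M of the library total, without the TMM factors, and levels per kb use the union of exons. Gene coordinates and exons come from a GENCODE annotation of mm10 and promoters from RefSeq; both were used here only for position, length, overlap and motifs.

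The members and the lists of other genes were chosen with earlier results of these data known. Values in every library are given for the transcription factors, the gene with the highest mean CPM of each role, genes called with a log2 change of at least 1 (otherwise the 3 largest called) and genes called in the interaction; of each other list the 2 largest called changes in a direction may be named. Glb1, Scarb2 and the markers were added after their values were seen, as were the genes named for a lost call.

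Deviations of same-numbered libraries from their group means correlated at 0.564 to 0.611 over the 6 pairs of groups. The numbers come from the labels, which do not say what they mark. The replicate block is therefore given where it changes a call. Its very small p-values, from 3 residual degrees of freedom, rest mostly on spread pooled over genes. The calls it adds are descriptions and do not replace those of the main fit. Replicates of a group differed beyond counting noise (chi-square per degree of freedom 12.9 to 23.2). Alternatives were DESeq2 1.42.0, RLE and upper-quartile normalization, no filter, the block, fits of only the 2 groups compared, and leaving out each library.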

Additional observations from a re-analysis of the deposited data

Results flagged for a closer look

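For 3 genes the irradiation effect differed between the lines by the interaction test of edgeR, out of 161 lysosome, pathway and marker genes tested (1.86%, beside 1.37% of all genes called higher). It was larger in KO for Lipa by 0.579 on the log2 scale (adjusted p = 0.0332), a call lost on leaving out any 1 of the 8 libraries. It was larger in KO for Optn, a receptor of selective autophagy, by 0.868 (adjusted p = 0.0235), with 37.4 and 38.2 CPM in the WT non-IR libraries, 57.4 and 61.5 in the WT IR libraries, 33.7 and 36.4 in the KO non-IR libraries, and 92.1 and 106 in the KO IR libraries. It was larger in KO for Lgals9, which encodes a galectin that binds damaged lysosomes, by 1.02 (adjusted p = 0.00252), with 65.8 and 67.6 CPM in the WT non-IR libraries, 123 and 121 in the WT IR libraries, 102 and 106 in the KO non-IR libraries, and 388 and 372 in the KO IR libraries. In each of the 3 genes both irradiated KO libraries lay above all others. The call of Lgals9 held on leaving out each of the 8 libraries and that of Optn only on leaving out irradiated KO replicate 1. Of the 6 protease inhibitors and galectins tested, 3 rose and 2 fell with irradiation in WT, and 4 rose and 2 fell in KO. Of all genes 20.4% rose and 18.4% fell in WT, and 21.1% and 18.6% in KO. Those that fell were Lgals1 (log2 -0.34 in WT and -0.51 in KO) and Lgals3 (-0.38 and -0.29).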

How the results depend on the processing

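With 2 libraries a group and 4 residual degrees of freedom, small effects can lose their call when 1 library is left out. All alternatives kept 26 of the 27 WT irradiation calls and 25 of 34 in KO, where the 34 include Ctss. They kept 6 of 13 KO effects without irradiation, 9 of 14 after it and 0 of 1 interactions, and no called value reversed. Scaling moved the median of all genes by at most 0.058.

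With the replicate block 4465 of all genes were lower after irradiation in WT and 4417 in KO, 3197 were higher and 3504 lower in KO without irradiation, 3761 and 3755 after it, and the interaction called 1216 and 1276. Of the lysosome genes the block called 3 lower in WT, 19 higher and 5 lower in KO without irradiation, 21 and 6 after it, and 6 and 6 in the interaction. The 21 include Ctss, which passed the filter through irradiated KO alone. The unfiltered fit called 2 lysosome genes lower in WT, and in the interaction 2 higher and, over all genes, 359 and 219. DESeq2 called 0 lower in KO with irradiation and 2 higher and 1 lower in the interaction. Upper-quartile scaling called 0 lower in KO without irradiation. Fits of only the 2 groups compared called 1 lower in WT, 0 lower in KO under either treatment and, over all genes, 831 lower in KO without irradiation. The cause of these shifts was not tested.

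Leaving out 1 library, which leaves a lone sample assumed to vary like the other groups, gave 2034 to 3015 genes higher and 1812 to 2754 lower with irradiation in WT (lysosome genes 26 to 27 and 0 to 1), and 2072 to 3104 and 1832 to 2883 in KO (26 to 31 and 0 to 1). KO effects ranged over 788 to 1406 and 676 to 1139 without irradiation (7 to 12 and 0) and 1100 to 1887 and 792 to 1592 after it (9 to 12 and 0 to 2), and the interaction over 99 to 124 and 18 to 31 (0 and 0). With the bases before the start site alone, 13 lysosome genes held CACGTG and 5 TCACGTGA.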
